A study of Homo sapiens with 4 samples.

Results

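The 4 HOX clusters of the human genome (HOXA on chromosome 7, HOXB on chromosome 17, HOXC on chromosome 12 and HOXD on chromosome 2) were examined in Hi-C maps of IMR90 human lung fibroblasts, a line of normal diploid cells. The bins that overlap a window of hg19 set around each cluster were taken as core bins, and 10 bins on each side of each cluster were added as flanking bins. These were 88 of the 14444 bins of about 200 kb, of which 8 were core bins and 80 were flanking bins, and 87 of them carried enough values in all maps to be used. Hi-C counts ligation products between pieces of DNA that lay close together in the nucleus. The cells carried an inducible ER:HRAS G12V oncogene, which 4-hydroxytamoxifen (4OHT) switches on and which leads to oncogene-induced senescence (OIS). There were 4 maps. The Grow map was of growing cells, the OIS map of senescent cells, the Grow-shA1 map of growing cells with a short hairpin RNA (vector pMSCV miR shHMGA1) against the chromatin protein HMGA1, and the OIS-shA1 map of such cells given 100 nM 4OHT for 6 days. Either map with shA1 pooled 2 samples. The Grow and OIS maps came from an earlier data set that matches no sample of this series, and the labels used here do not describe the vector of those cells. Hence the hairpin and the data set cannot be told apart in any difference between a map with shA1 and a map without it. With 1 map per condition there was no spread between replicates and no test. Many values below are set beside the same value over all bins, as a percentile or a median. Others are given without one.

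HOX genes encode homeodomain transcription factors that give cells their position along the body axis. Within a cluster they lie in the order in which they are used, from the early, anterior genes of group 1 to the late, posterior genes of group 13. In cells that do not use them, the clusters are held silent by Polycomb proteins, and fibroblasts of different body sites keep different sets of HOX genes active in culture. HMGA1 is a small protein whose AT-hooks bind the minor groove of DNA rich in A and T. All scores below are contacts corrected for distance, so that a higher value is a pair that met more often for its distance. A score of 0 was not the usual one at every distance. Pairs of adjacent bins had a median of 0.720 in Grow and 0.647 in OIS. The base of the scale is not stated, and the depth behind a value is unknown. Among the 8 core bins, the lowest share of distal pairs with a listed value was 84.1% in Grow, 79.7% in Grow-shA1, 75.0% in OIS and 72.9% in OIS-shA1. The level of HMGA1 was not measured in these maps.

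Each of the 4 clusters was cut by an edge between 2 bins. The bin edges lie at sites of HindIII, the restriction enzyme of the assay. The HOXA edge, 834 bases from HOXA9 and between genes, put SKAP2 and HOXA2 to HOXA7 in the bin chr7:27002903-27201206, and HOXA9, HOXA10, HOXA11, HOXA13 and EVX1 in the bin chr7:27201207-27400973. The HOXB edge lay in an exon of HOXB13 itself. HOXB1 to HOXB9 thus fell in the bin chr17:46599371-46803741, and the start of HOXB13 in the bin chr17:46803742-46996817 with TTLL6, CALCOCO2, ATP5MC1 and UBE2Z. The HOXC edge, in an intron of HOXC6, left HOXC13, HOXC12, HOXC11, HOXC10, HOXC9 and HOXC6 in the bin chr12:54198926-54402006, and HOXC8, HOXC5, HOXC4 and the DNA repair gene SMUG1 in the bin chr12:54402007-54597369. The HOXD edge lay in an exon of the antisense transcript HOXD-AS2, with LNPK, EVX2, HOXD13, HOXD12, HOXD11, HOXD10, HOXD9 and HOXD8 in the bin chr2:176802600-176999629, and HOXD4, HOXD3, HOXD1 and MTX2 in the bin chr2:176999630-177202647. All 39 HOX genes were in the 8 core bins. The sites that part the bins of HOXA, HOXC and HOXD in these maps are shown here from the plus strand of hg19, with the HindIII site in capitals.
HOXA edge, chr7:27201194-27201223: ggttccccttttAAGCTTagaacacatcca
HOXC edge, chr12:54401994-54402023: gagcccctagccAAGCTTgtggccattgcc
HOXD edge, chr2:176999617-176999646: tatttcacatccAAGCTTcttgtgtcctct

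The 8 core bins were rich in CpG, the pair of bases at which DNA is methylated. They held between 13 and 23.8 CpG per kb, against a median of 8.08 over all bins, which placed them between the percentiles 82.5 and 98.7. For 1 core bin of each cluster, that bin's window of 200 bases with the most CpG outside annotated exons is shown. Every CpG is in capitals. The windows are given because Polycomb is known to gather at CpG-rich DNA of silent HOX genes. The HOXA window lies 50 bases from HOXA13, in an intron of the long non-coding RNA HOTTIP. The HOXB window lies in an intron of HOXB3, the HOXC window is intergenic and 2154 bases from HOXC12, and the HOXD window lies in an intron of HOXD11.
HOXA CpG window, chr7:27239760-27239959: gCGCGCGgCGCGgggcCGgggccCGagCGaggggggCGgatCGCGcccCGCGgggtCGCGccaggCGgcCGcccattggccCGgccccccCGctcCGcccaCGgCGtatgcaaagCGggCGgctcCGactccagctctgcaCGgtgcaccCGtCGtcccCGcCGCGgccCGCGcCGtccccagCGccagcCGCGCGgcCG
HOXB CpG window, chr17:46641581-46641780: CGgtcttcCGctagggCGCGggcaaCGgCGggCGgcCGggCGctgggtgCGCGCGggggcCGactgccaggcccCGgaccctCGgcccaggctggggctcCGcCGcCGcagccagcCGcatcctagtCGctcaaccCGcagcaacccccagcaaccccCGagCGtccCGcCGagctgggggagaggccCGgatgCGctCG
HOXC CpG window, chr12:54354894-54355093: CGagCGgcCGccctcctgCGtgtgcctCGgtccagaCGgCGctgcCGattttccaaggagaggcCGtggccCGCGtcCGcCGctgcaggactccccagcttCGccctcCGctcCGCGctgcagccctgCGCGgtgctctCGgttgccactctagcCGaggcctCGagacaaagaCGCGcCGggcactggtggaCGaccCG
HOXD CpG window, chr2:176971642-176971841: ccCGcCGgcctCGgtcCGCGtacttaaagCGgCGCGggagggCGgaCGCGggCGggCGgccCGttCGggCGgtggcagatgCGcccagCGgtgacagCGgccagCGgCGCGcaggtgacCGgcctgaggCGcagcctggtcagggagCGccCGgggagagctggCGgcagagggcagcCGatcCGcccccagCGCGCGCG
These windows hold 39 CpG in HOXA, 28 in HOXB, 27 in HOXC and 33 in HOXD. In HOXB and HOXC they are not the densest of the cluster. The other core bin had a window with 33 CpG in either cluster, neither at a HOX gene. That of HOXB lies 11 bases from TTLL6 and that of HOXC in an intron of SMUG1. The other core bins of HOXA and HOXD had 29 and 24.

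Runs of only A and T, the kind of DNA that AT-hooks favour, were not rich in the core bins as a group. Runs of at least 15 bases numbered between 50.2 and 110 per 100 kb in the 8 core bins, against a median of 89.9, and 3 of the 8 lay above that median. The lowest value was in the bin of HOXC4, HOXC5 and HOXC8 (percentile 5.87).

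Among the microRNA genes of the clusters are members of 1 seed family, at like places in the HOXA, HOXB and HOXC clusters. MIR196B lies in the bin of HOXA9 to HOXA13, MIR196A1 in the bin of HOXB1 to HOXB9 and MIR196A2 in the bin of HOXC13. RefSeq (GRCh38.p14) gives the mature forms below, with the seed (bases 2 to 8) in capitals, and MIR196A1 and MIR196A2 give the same 5p sequence.
hsa-miR-196a-5p: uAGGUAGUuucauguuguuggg
hsa-miR-196b-5p: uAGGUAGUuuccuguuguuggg
The seed AGGUAGU is shared by both. Of 8 microRNA genes annotated in the core bins, 6 were matched in that table. These include MIR615 in HOXC, MIR3185 in HOXB and MIR10B in HOXD, whose listed mature forms have other seeds.

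In the Grow map the clusters lay in different compartments. The compartment score is the first principal component of the correlation between bins of a chromosome, signed so that bins rich in genes (A, open chromatin) are above 0 and the rest (B) below 0. HOXB lay in A throughout. The bin of HOXB1 to HOXB9 scored 1.11 in Grow, 1.12 in Grow-shA1, 1.16 in OIS and 1.22 in OIS-shA1, and the bin of HOXB13 scored 1.11, 1.12, 1.17 and 1.36 in the same order. All 19 flanking bins of HOXB that were used were also in A in Grow, against 42.1% of all 13606 bins. HOXB was thus the only cluster whose core and flanks were A in every map.

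HOXD lay in B throughout. The bin of HOXD13 to HOXD8 scored -0.75 in Grow, -0.88 in Grow-shA1, -0.49 in OIS and -0.77 in OIS-shA1. The bin of HOXD3, HOXD4 and HOXD1 scored -0.98, -1.04, -0.64 and -0.91. The nearest bins on both sides, which hold no start of a coding gene, were in B as well. A further 6 bins on the group 13 side, from the bin of CHN1, a regulator of the GTPase Rac, outward, were in A in Grow.

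HOXA was split between the compartments. The bin of HOXA2 to HOXA7 was in A in each map (0.22 in Grow, 0.15 in Grow-shA1, 0.52 in OIS and 0.59 in OIS-shA1). The bin of HOXA9 to HOXA13 was in B in each map (-0.64, -0.70, -0.25 and -0.58). In Grow, the anterior bin was an A bin with B neighbours on both sides (-0.38 and -0.64).

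HOXC was a B island between A neighbours in Grow. The bin of HOXC13 to HOXC6 scored -0.77 in Grow, -0.74 in Grow-shA1, -0.14 in OIS and -0.10 in OIS-shA1. The bin of HOXC8, HOXC5 and HOXC4 scored -0.53, -0.60, 0.16 and 0.01. The flanking bin on the group 13 side, with ATF7 and CALCOCO1, scored 0.44 in Grow. The flanking bin on the other side, with CBX5 (heterochromatin protein HP1 alpha) and HNRNPA1 (an RNA-binding protein), scored 1.08. Of the 8 core bins, 5 were therefore in B in Grow, although each had more CpG than the median bin.

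**Figure D1:**
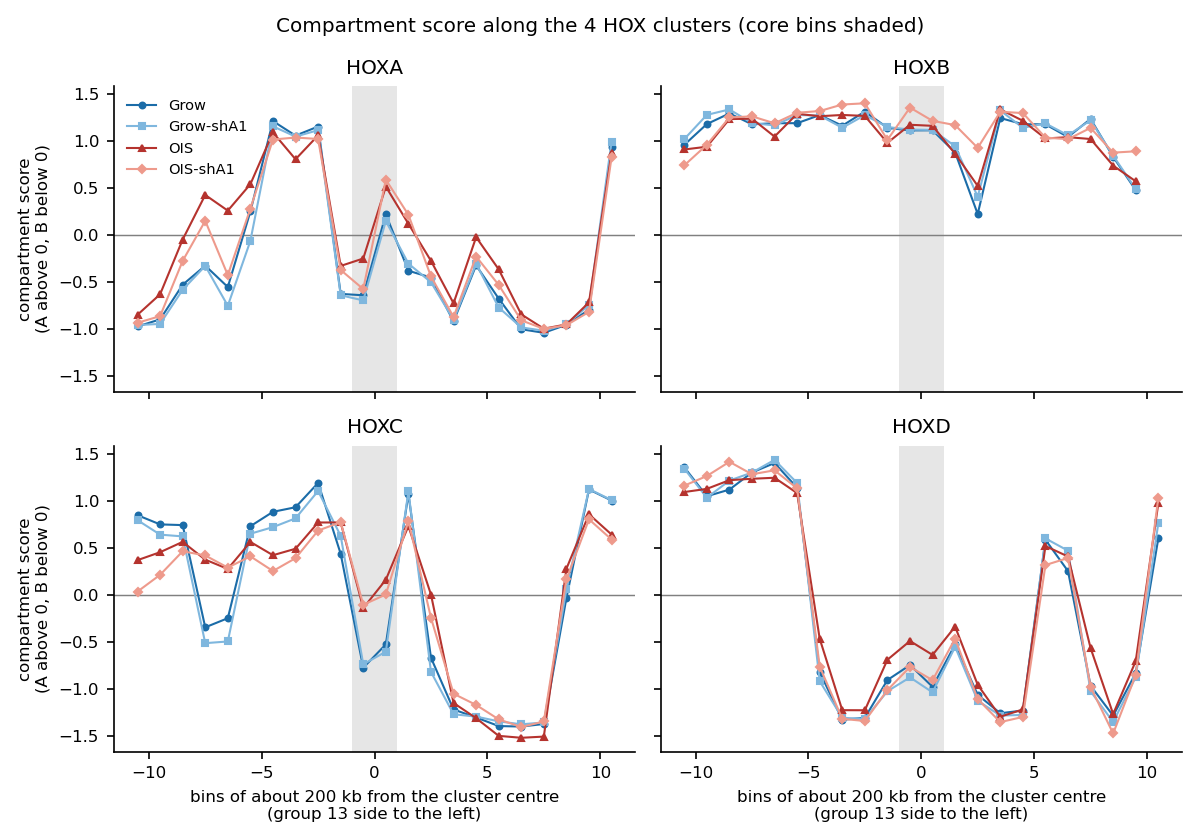
Compartment score (y axis, no unit, A above 0 and B below 0) of the core bins (grey band) and 10 flanking bins on each side, by position in bins of about 200 kb from the cluster centre, with the group 13 side at the left, and 1 line per map. HOXB stays above 0 throughout, HOXD core bins stay below 0, HOXA has its posterior bin at -0.64 and its anterior bin at 0.22 in Grow, and the HOXC core bins rise towards 0 in OIS and OIS-shA1. The outermost HOXB bin without enough values is left out.

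With RAS, the compartment score was higher in each of the 8 core bins. OIS minus Grow was between 0.05 and 0.69 for the 8 bins, where the median of all bins was -0.01. The same held between the maps with shA1, which share no map with the first comparison, and where OIS-shA1 minus Grow-shA1 was between 0.10 and 0.63 (median of all bins -0.01). Of the 8 core bins, those of HOXC had the largest difference in both comparisons. It was 0.63 and 0.69 for the HOXC bins without the hairpin (percentiles 91.5 and 93.1 of all bins) and 0.63 and 0.61 with it (percentiles 92.0 and 91.4). The HOXB bins moved least without the hairpin (0.05 and 0.06). When each chromosome arm was scored apart, the HOXB bins differed by 0.18 and 0.13, still the least of the 8. With the hairpin and this scoring, the bin of HOXA2 to HOXA7 (0.65) was above both HOXC bins (0.58 and 0.51).

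Few bins changed sign. In OIS minus Grow, 8 of the 87 HOX bins (9.2%) changed the sign of their score, against 9.76% of all bins, and all 8 went from B to A. That was also the main direction over all bins, of which 42.1% were in A in Grow and 50.1% in OIS. With the hairpin these shares were 42% in Grow-shA1 and 48.5% in OIS-shA1. Of the 8 HOX bins, 3 were in HOXA, among them the flanking bin nearest to HOXA2, and 5 were in HOXC. The HOXC bins were those of the keratin genes KRT82 to KRT72 and KRT73 to KRT3, of the integrin gene ITGA5, of OR10P1 and CD63, and the core bin of HOXC8, HOXC5 and HOXC4. In OIS-shA1 minus Grow-shA1, 6 HOX bins changed sign, also from B to A, against 9.19% of all bins, with both keratin bins and the same HOXC core bin among them. That core bin reached only 0.01 in OIS-shA1, and it was at -0.10 there when each chromosome arm was scored apart. In OIS-shA1 minus OIS, 2 HOX bins changed sign, both from A to B (4.55% of all bins), and in Grow-shA1 minus Grow 2 did (3.33% of all bins). No core bin was among these.

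Among senescent cells, the scores of the HOXD core and of the posterior HOXA bin were lower in the map with the hairpin. OIS-shA1 minus OIS was -0.28 for the bin of HOXD13 (percentile 7.97 of all bins), -0.27 for the bin of HOXD1 (8.36) and -0.33 for the bin of HOXA13 (5.86). With each arm scored apart these were -0.22, -0.17 and -0.23. The bin of HOXA2 to HOXA7 moved the other way (0.07). In growing cells the corresponding differences were -0.13 (percentile 14.7) and -0.06 (29.7) for HOXD and -0.05 (31.1) for the bin of HOXA13.

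**Figure D2:**
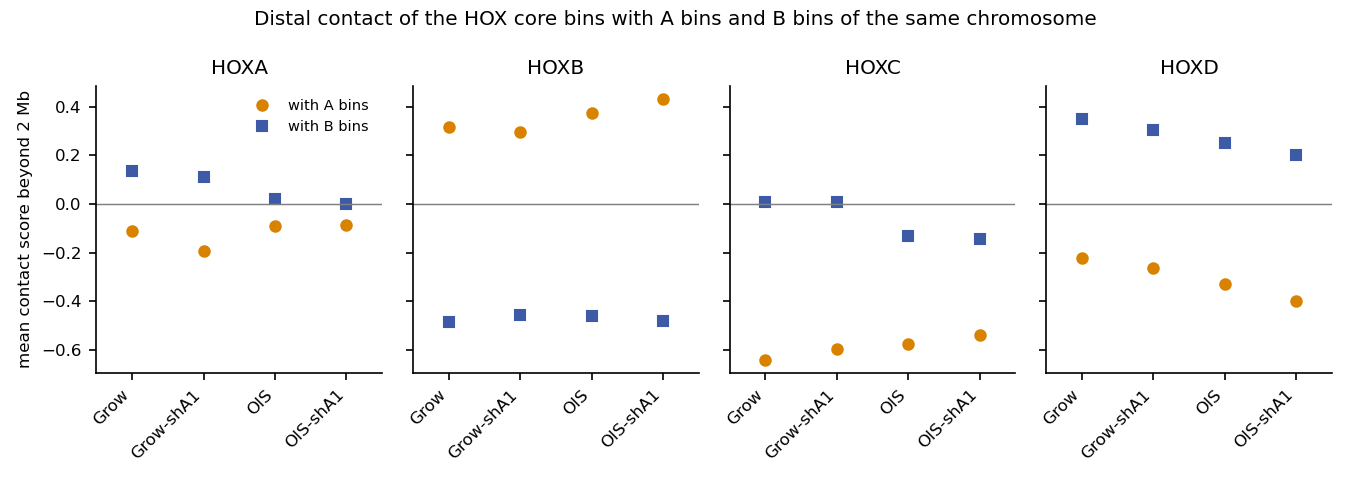
Mean contact score (y axis, score units) of the 2 core bins of each cluster with bins more than 2 Mb away on the same chromosome, for A bins (circles) and B bins (squares) of the Grow map, in each of the 4 maps (x axis). HOXB is above 0 with A bins and below 0 with B bins, HOXD is the reverse, and HOXC has its lowest values with A bins.

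Distal contacts, those over more than 2 Mb on the same chromosome, followed the compartments for HOXB and HOXD. The HOXB core met A bins at a mean score of 0.317 in Grow, 0.294 in Grow-shA1, 0.375 in OIS and 0.431 in OIS-shA1, and B bins at -0.487, -0.458, -0.463 and -0.481. The HOXD core met A bins at -0.221, -0.265, -0.330 and -0.401, and B bins at 0.351, 0.306, 0.252 and 0.203. Both kinds of distal contact of HOXD were thus lowest in OIS-shA1. For B contact the median of all bins was also lowest there (0.240, 0.199, 0.116 and 0.079 in the same order). For A contact that median was -0.098, -0.141, -0.089 and -0.102. In OIS minus Grow, HOXD differed by -0.109 with A bins and by -0.099 with B bins. The first of these was 0.022 with the compartments of each map, so its direction depends on that choice.

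HOXA met B bins at 0.137 in Grow, 0.110 in Grow-shA1, 0.019 in OIS and 0.000 in OIS-shA1, and A bins at -0.112, -0.193, -0.092 and -0.085. The anterior bin had almost equal contact with A bins (0.031) and B bins (0.010) in Grow. The posterior bin met B bins far more than A bins (0.265 against -0.355). Its B contact was near the median of all bins in Grow (0.240), and its A contact was below that median (-0.098). HOXC met A bins at -0.640, -0.597, -0.577 and -0.539, and B bins at 0.008, 0.009, -0.134 and -0.145. Neither kind of distal contact of HOXC was thus above 0.01 in any map.

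Distal B contact was lower in OIS than in Grow in HOXA, HOXC and HOXD, under each setting tried, and had no settled direction in HOXB. OIS minus Grow was -0.119 in HOXA, 0.025 in HOXB (between -0.136 and 0.122 over the settings), -0.142 in HOXC and -0.099 in HOXD. The mean was -0.084 (SD over the 4 clusters 0.074), where the median of all bins was -0.089. With shA1 the values were -0.110, -0.022, -0.154 and -0.103, near those without it. Between maps with and without the hairpin, the B contact of the cores differed by -0.049 to -0.011 in senescent cells and by -0.045 to 0.029 in growing cells. The means over the 4 clusters, -0.024 and -0.011, turned to 0.009 and 0.040 when each map was centred at each distance, so these differences have no settled direction.

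No core bin moved by 0.2 score units, the size taken here as a call, in distal B contact in any comparison. In OIS minus Grow, 6 of 87 HOX bins were lower by at least that much, all of them flanking bins, against 27% of all bins. HOX bins with a fall of at least 0.2 in B contact in senescence were therefore fewer than the background. This count leaves out smaller falls, and 7 of the 8 core bins had a difference below 0. Another 2 were higher, against 4.57% of all bins. In OIS-shA1 minus Grow-shA1, 8 were lower (23.9% of all bins) and 2 were higher (6.21% of all bins). In Grow-shA1 minus Grow none was lower (4.58% of all bins) and none was higher (0.544% of all bins). Across the 87 bins, the RAS difference with the hairpin and without it, 2 comparisons with no map in common, had a Pearson r of 0.765 and a slope of 0.860, where all 13604 bins with a value gave 0.825 and 0.839. Neighbouring bins share contacts, so this is a description of these maps.

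In OIS-shA1 minus OIS, 5 HOX bins were lower in distal B contact (9.29% of all bins) and 1 was higher (3.43% of all bins). The 5 were neighbours, the third to the seventh bin beyond HOXC4, which hold LACRT and DCD (secreted products of glands), MUCL1, NEUROD4 and a run of olfactory receptor genes of the OR6C family. The bin of OR6C76 to OR2AP1, at chr12:55804001-56001052, had a B contact of 0.784 in Grow, 0.629 in Grow-shA1, 0.810 in OIS and 0.482 in OIS-shA1. The bin of OR10A7 to OR6C65, at chr12:55596978-55804000, had 0.868, 0.691, 0.880 and 0.585. These bins were called for a fall of at least 0.2 in OIS-shA1 minus OIS. A lower value in OIS-shA1 than in OIS was thus set by that choice. Such bins made up 5.75% of the 87 HOX bins, a smaller share than among all bins. Grow-shA1 was also below Grow in both bins shown, which was not part of the choice, and OIS-shA1 was the lowest map.

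By cluster, the flanking bin with the largest loss of B contact in OIS minus Grow was a bin without coding gene starts at chr7:28601218-28799514 in HOXA (0.202 in Grow and -0.138 in OIS), the bin of OLA1, an ATPase, in HOXD (-0.219 and -0.573), the bin of the keratins KRT73 to KRT3 in HOXC (-0.324 and -0.520) and the bin of WNT3 and WNT9B in HOXB (-0.230 and -0.404). The largest increase was in the bin of SNF8, GIP and IGF2BP1 next to HOXB13 (-0.777 and -0.557). In HOXC it was in the bin of TNS2 and IGFBP6 (-1.09 and -0.899), in HOXD in the bin of CHRNA1 (-0.549 and -0.396) and in HOXA in the bin of OSBPL3 and CYCS (-0.203 and -0.162). These bins were picked for this difference, and their values are given only as a description.

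The 2 core bins of HOXA, HOXC and HOXD met each other less than the median pair of adjacent bins. Their contact score in Grow was -0.718 for HOXA, -0.251 for HOXC and -0.218 for HOXD, against a median of 0.720 over 11977 pairs of adjacent bins (percentiles 1.5, 5.7 and 6.2). HOXB had 1.06 (percentile 69.6). The edge of the HOXD pair lies between HOXD8 and HOXD3, and this pair was the lowest of the 21 adjacent pairs along the HOXD region in each of the 4 maps. The HOXA pair, with its edge between HOXA7 and HOXA9, was the lowest but 1 in each map, after a pair at the far end of the region. The HOXC pair was not low for its region, where it ranked between 6 and 9 from the lowest of 21 in the 4 maps, and it was at percentiles 25.7 and 21.2 of all pairs in OIS and OIS-shA1.

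**Figure D3:**
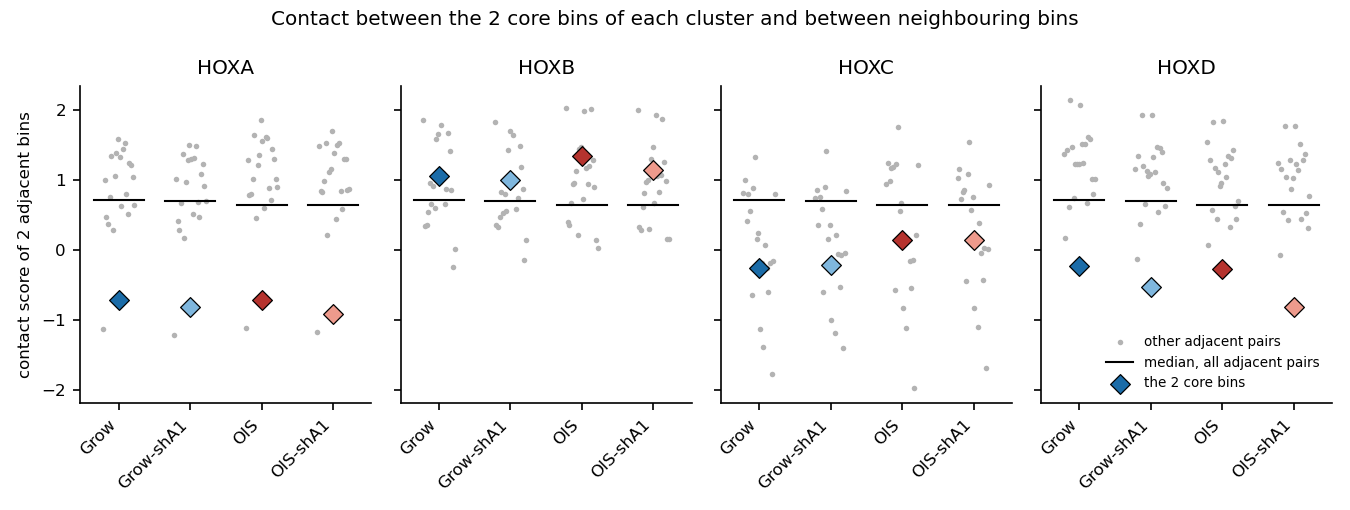
Contact score of 2 adjacent bins (y axis, score units) in each of the 4 maps (x axis): the 2 core bins of each cluster (diamonds), the other 20 adjacent pairs of the same region (grey points) and the median of all 11977 adjacent pairs (black bars). The HOXD diamond lies below every grey point of its panel, from -0.218 in Grow to -0.806 in OIS-shA1.

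The HOXD pair was lower in both maps with the hairpin than in both maps without it. It scored -0.218 in Grow, -0.523 in Grow-shA1, -0.275 in OIS and -0.806 in OIS-shA1. OIS-shA1 minus OIS was -0.531, at percentile 0.4 of all adjacent pairs, and Grow-shA1 minus Grow was -0.305, at percentile 1.7. Both were the lowest differences among the 21 adjacent pairs of the HOXD region. These 2 comparisons share no map, but both set the new data set against the earlier one. OIS minus Grow was -0.056 (percentile 53.3). Under 3 other scalings of the maps they were between -0.815 and -0.522 and between -0.478 and -0.252. Each of these values rests on 1 pair of bins, and its counting error is unknown. The HOXA pair went from -0.718 to -0.808 with the hairpin in growing cells and from -0.714 to -0.912 in senescent cells, and the HOXB pair from 1.06 to 1.01 and from 1.35 to 1.15, at percentiles 18.1 to 44.1. The difference of the HOXB pair in senescent cells was also the lowest of the 21 pairs of its region. The HOXC pair differed by 0.041 and 0.001 with the hairpin, and by 0.393 in OIS minus Grow (percentile 92.2) and 0.352 between the maps with the hairpin (percentile 93.9).

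The 2 bins of HOXA, and likewise those of HOXD, each met their own side more than the other side. In Grow, the bin of HOXA2 to HOXA7 met the 5 nearest flanking bins on its own side at a mean of 1.01 and the 5 on the HOXA13 side at -0.349. The bin of HOXA9 to HOXA13 met its own side at 1.41 and the other side at 0.881. For HOXD the bin of HOXD13 had 1.51 with its own side and 0.967 with the other, and the bin of HOXD1 had 1.42 and 0.244. Averaged over both bins, own side exceeded other side by 0.941 in HOXA and by 0.860 in HOXD, at percentiles 93.0 and 91.1 of 12081 pairs of adjacent bins. In the 4 maps this difference was between 0.820 and 0.966 in HOXA and between 0.721 and 0.860 in HOXD.

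HOXB did not divide in this way. The bin of HOXB1 to HOXB9 met its own side at 1.18 and the other side at -0.511, but the bin of HOXB13 also met the anterior side more, at 0.908 against 0.256 on its own side. In HOXC the bin of HOXC13 met its own side at -2.07 and the other at -1.08, and the bin of HOXC4 met its own side at -1.14 and the other at -1.91. The whole HOXC core thus met the side beyond HOXC4 more than the side beyond HOXC13, though these scores were all below 0.

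In all 4 clusters the core made more contact with the 10 bins beyond its anterior end than with the 10 bins beyond group 13. In Grow, the means were 0.714 and 0.613 for HOXA, 0.316 and -0.316 for HOXB, -1.32 and -1.73 for HOXC, and 0.808 and 0.122 for HOXD. The order was the same in each of the other maps. In Grow, the largest single values were in HOXB, with the second bin beyond HOXB1 (2.43 in Grow, 2.46 in Grow-shA1, 2.39 in OIS and 2.43 in OIS-shA1), and in HOXD, with the second bin beyond HOXD1 (2.03, 1.94, 1.85 and 1.80). Neither bin holds the start of a coding gene. In OIS and OIS-shA1 the third bin beyond HOXB1, at 2.06 and 1.91, was above that HOXD bin. The lowest were in HOXC, with the third and the fourth bin beyond HOXC13 (-3.25 and -2.92 in Grow, -3.46 and -4.22 in OIS-shA1), which hold SP1 and RARG (transcription factors) and ITGB7 (an integrin chain), among others.

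**Figure D4:**
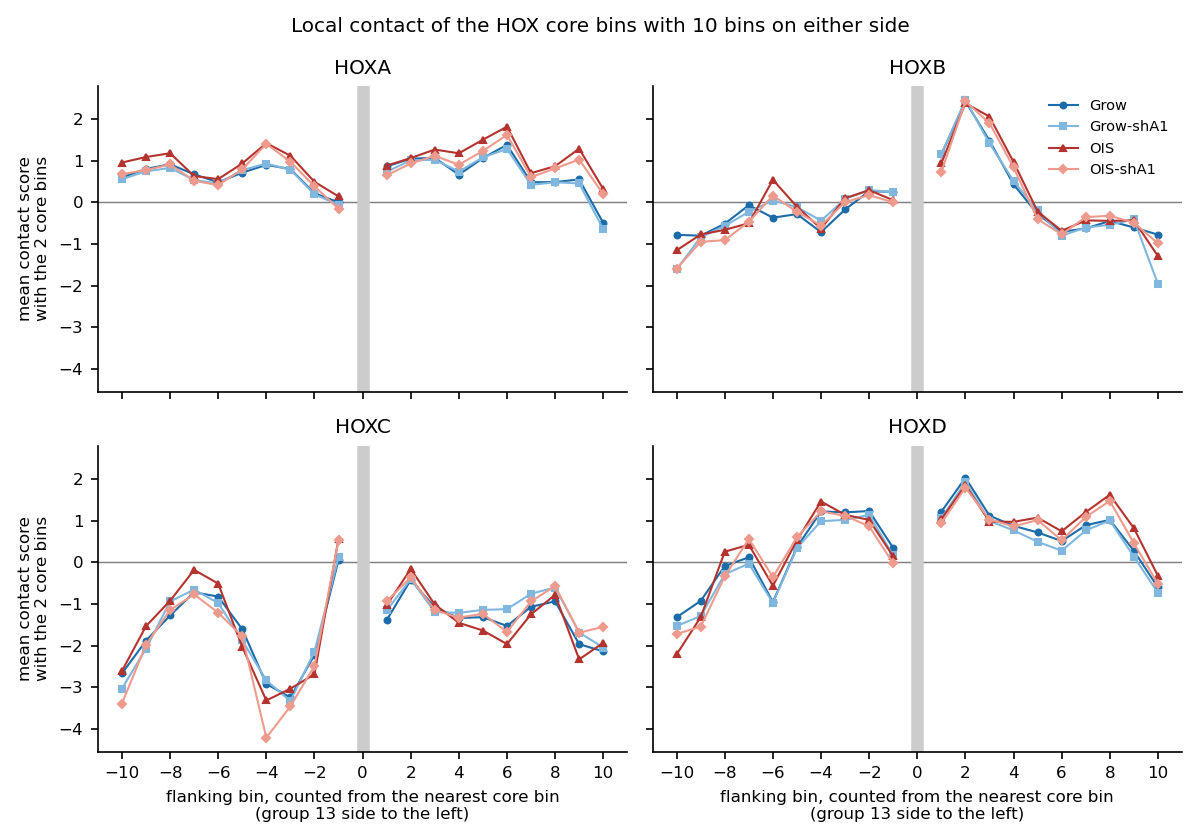
Mean contact score (y axis, score units) of the 2 core bins with each of the 10 flanking bins on either side (x axis, bins counted from the nearest core bin, group 13 side at the left), 1 line per map. HOXC lies below 0 at every position but the nearest bin on the HOXC13 side, and the peaks of HOXB and HOXD at 2.43 and 2.03 in Grow are on the anterior side. Each value uses the pairs listed in that map. The outermost HOXB bin on the anterior side, which had too few values to be used elsewhere, is drawn.

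HOXA made more local contact in OIS than in Grow. Its contact with the anterior side was 0.714 in Grow, 0.661 in Grow-shA1, 1.09 in OIS and 0.913 in OIS-shA1. OIS minus Grow was 0.378 on that side (percentile 95.2) and 0.243 on the HOXA13 side (percentile 87.8), where the median of all adjacent bins was -0.118. Under 8 other settings the anterior value was between 0.219 and 0.529. With the hairpin the RAS difference was 0.252 (percentile 92.2) and 0.096 (percentile 76.6). For HOXD it was 0.193 on the anterior side without the hairpin (percentile 83.8) and 0.198 with it (percentile 88.1), and -0.032 and 0.085 on the HOXD13 side. Among the other settings the anterior value without the hairpin was as low as -0.010, and the values on the HOXD13 side reached 0.217 and -0.202. For HOXB, OIS minus Grow was 0.146 on the anterior side and 0.034 on the HOXB13 side, and the latter was -0.341 with 20 flanking bins.

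The 2 sides of HOXC moved in opposite directions with the hairpin in senescent cells. Contact of its core with the HOXC13 side was -1.73 in Grow, -1.77 in Grow-shA1, -1.63 in OIS and -1.99 in OIS-shA1. OIS-shA1 minus OIS was -0.364 on this side (percentile 4.7) and 0.213 on the HOXC4 side (percentile 79.9). In growing cells the difference was 0.186 on the HOXC4 side (percentile 98.9) and -0.042 on the HOXC13 side. Own side minus other side, averaged over the 2 HOXC bins, was -0.110 in Grow, 0.020 in Grow-shA1, -0.491 in OIS and -0.063 in OIS-shA1. The OIS map alone stood apart, so the differences OIS minus Grow (-0.381, percentile 0.372) and OIS-shA1 minus OIS (0.429, percentile 99.95) share that map and are not 2 separate observations. The latter was between 0.083 and 0.430 under 6 other settings.

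Bins on either side of a cluster met across it least in HOXC and most in HOXD. Between the 5 nearest bins on either side, the mean contact in Grow was 0.169 for HOXA, -0.170 for HOXB, -2.12 for HOXC and 0.897 for HOXD, against a median of -0.156 over all places (percentiles 63.9, 49.3, 1.4 and 85.2). HOXC was at percentiles 1.4 to 3.2 in the 4 maps. In HOXD, the bins on either side thus met across the cluster at a score above the median, while the 2 core bins between them met each other less than the median pair. OIS minus Grow was 0.391 in HOXA (percentile 94.5), 0.032 in HOXB, -0.309 in HOXC (percentile 32.6) and 0.232 in HOXD (percentile 84.9). Between the maps with the hairpin it was 0.249, -0.055, -0.334 and 0.199. The HOXC differences turned to 0.027 and 0.007 when each value was divided by the SD of its map at the same distance, so their direction depends on the scale. The HOXD difference with the hairpin turned to -0.118 with 3 bins on either side. The HOXB differences, both small, also changed sign, to -0.272 with 10 bins on either side and to 0.050 with centred maps. Between maps with and without the hairpin, HOXA differed by -0.171 in senescent cells (percentile 25.7) and by -0.029 in growing cells, and HOXB by 0.135 in growing cells (percentile 95.7).

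Long-range contact with other Polycomb targets was examined with a list of 59 developmental genes of the same 4 chromosomes, most of them transcription factors. Of these, 44 were used, 5 lay within 2 Mb of a cluster, and 10 fell in bins without a value in all 4 maps. No Polycomb mark was measured here. The 44 genes lay in 40 bins, 16 of them in A and 24 in B in Grow. Each value is a mean over at most 2 pairs of bins. Among the B bins, 15 of 24 met the HOX core of their chromosome more than the median B bin did in Grow, 13 in Grow-shA1, 18 in OIS and 16 in OIS-shA1. Among the A bins, 8 of 16 did in Grow, 8 in Grow-shA1, 8 in OIS and 5 in OIS-shA1.

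In HOXC, target bins in B stood above other B bins. All 6 target bins in B met the HOXC core above the median B bin in Grow, with a median of 0.294 against 0.008 over 361 B bins. The medians were 0.161 against -0.003 in Grow-shA1, 0.670 against -0.198 in OIS and 0.343 against -0.198 in OIS-shA1. Among them are the bins of ALX1, ASCL4, FOXN4, LHX5 and TBX5, all developmental transcription factors, and the last 4 of these lie between 53.7 and 60.5 Mb from HOXC. FOXN4 was the highest, with 0.59 in Grow, 0.18 in Grow-shA1, 0.97 in OIS and 0.35 in OIS-shA1. The 5 target bins in A met HOXC at a median of -0.687, with 2 above the median A bin.

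HOXD met several single targets at high scores over long distances. TBR1, a factor of cortical neurons 14.7 Mb away, scored 1.30 in Grow, 1.24 in Grow-shA1, 0.68 in OIS and 0.50 in OIS-shA1. It was the highest Polycomb pair of HOXD in Grow (percentile 99.4 of distal B bins) and also the one with the lowest difference in OIS minus Grow (-0.62). PAX3, a factor of muscle and neural crest 46.1 Mb away, scored 1.14, 0.81, 1.05 and 0.91, at percentiles 88.1 to 96.8 of distal B bins. PAX3 and the DLX bin below were chosen after their values were seen. At the other end, the bin of DLX1 and DLX2, an A bin only 4.1 Mb away, scored -1.04, -1.11, -0.57 and -1.11. As a group, 5 of the 9 target bins in B lay above the median B bin in Grow. The highest difference in OIS minus Grow was at IHH (-0.74 to -0.12), a hedgehog ligand in an A bin.

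For HOXA, 3 of 8 target bins in B lay above the median B bin in Grow and 6 of 8 in OIS. TBX20, a factor of heart development chosen after its values were seen, was at 0.41, 0.71, 0.88 and 0.49 in Grow, Grow-shA1, OIS and OIS-shA1. The highest difference in OIS minus Grow was at NEUROD6 (0.09 to 0.69) and the lowest at MEOX2 (-0.15 to -0.68). The median difference over the 8 bins was 0.319, against -0.114 over all distal B bins. It was -0.042 against -0.073 between the maps with the hairpin, so that the upward shift was not seen there. For HOXB, where 6 of 7 target bins were in A, the highest was NEUROD2 (0.66 in Grow), which also had the highest difference (1.11 in OIS), and the lowest was at LHX1 (0.19 to -0.39). In HOXC, the lowest difference was at WNT5B (-0.02 to -0.71) and the highest at LHX5 (0.31 to 0.92), followed by TBX5 (0.29 to 0.90).

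**Figure D5:**
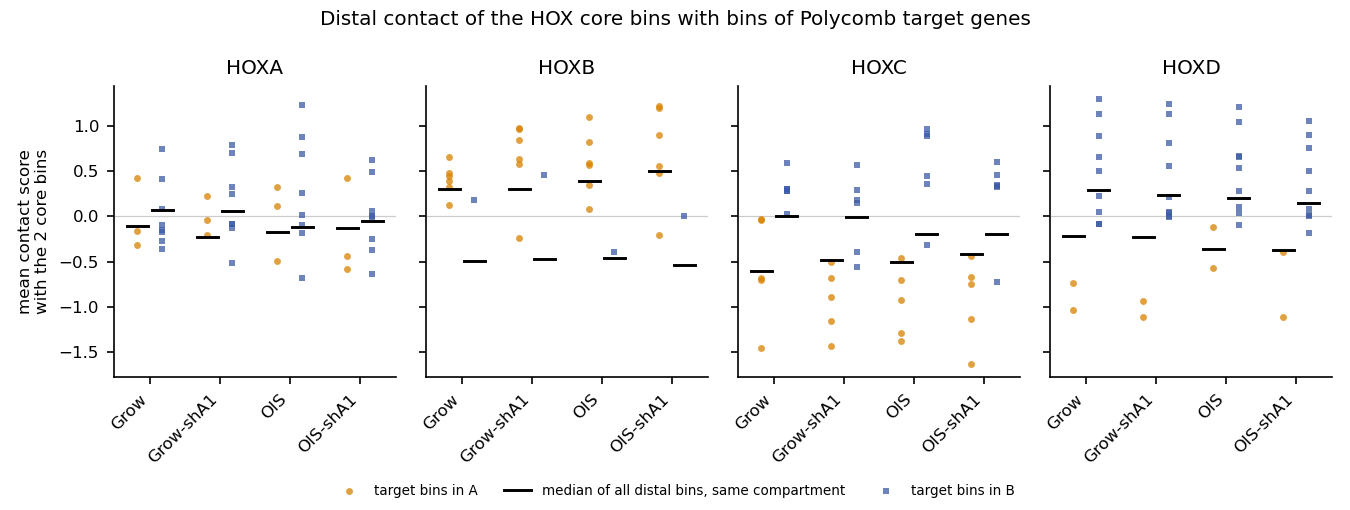
Mean contact score (y axis, score units) of the 2 core bins with each distal bin that holds a Polycomb target gene, for target bins in A (circles) and B (squares) of the Grow map, in each of the 4 maps (x axis). Black bars are medians of all distal bins of the same compartment. The HOXC squares in Grow all lie above their bar, at a median of 0.294 against 0.008.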

How the data were processed

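Hi-C was analysed in 4 maps, 1 per condition. The 4 samples of the series, 2 each of Grow-shA1 and OIS-shA1, were pooled in 2 maps by the authors, and the Grow and OIS maps came from an earlier data set. According to the study's methods, reads were aligned to hg19 and binned with HiC-Pro, duplicates and artefacts were removed, and counts in bins of 200 kb were balanced by iterative correction. The deposited values are a distance-corrected score with both signs, whose log base and prior are not stated, and the deposited list of bins holds other values, the bin positions, adjusted to HindIII sites. The maps listed 4631800 (Grow), 4358563 (Grow-shA1), 4123451 (OIS) and 4032189 (OIS-shA1) pairs of bins. Depth and replicate spread are unknown.

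Bins with values for at least 50% of the pairs of their chromosome were kept in all maps (13606 of 14310 bins on 23 chromosomes). Only pairs of bins listed in every map entered a mean, except in the values of single flanking bins with the core. Those used the pairs listed in each map. The compartment score was the first principal component per chromosome, scaled to a root mean square of 1 and signed by the density of coding genes. Distal contacts were those over 2 Mb, with A and B taken from the Grow map. A difference of 0.2 score units was called by size, without a test. Percentiles are among all places of the genome with enough values. Members and lists were chosen with earlier results of these data known. Flanking bins were named for the largest increase and decrease of distal B contact in OIS minus Grow, and Polycomb targets for the highest pair in Grow and the largest differences. Some items that these rules name are not reported here. The measures were tested on simulated data. Python 3.11.15, numpy 2.4.6, pandas 2.3.3 and matplotlib 3.10.9 were used. Alternatives are listed in the closing section. No columns of the authors' own comparisons were used.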

Additional observations from a re-analysis of the deposited data

How the results depend on the processing

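Of 360 values that answer a comparison, recomputed under the alternatives, 351 moved by less than the SD between the 4 clusters or, for counts, stayed within 1.5 times, and 9 moved by more. The 360 include means with each cluster left out in turn. Such a mean cannot move by as much as that SD, so those values say nothing on this point. Of 928 values of single clusters, 100 moved by more than that SD. For distal B contact averaged over the 4 clusters, OIS-shA1 minus OIS (-0.024) became 0.00945 with maps centred at each distance, 0.00813 over all listed pairs and 0.00568 with unlisted pairs at 0. Grow-shA1 minus Grow (-0.011) became 0.0403 with centring, and OIS-shA1 minus Grow-shA1 (-0.097) became -0.156 with compartments of each map. With compartments of each map, OIS minus Grow in distal A contact (0.008) became 0.0889. With centring, local contact with the group 13 side in OIS minus Grow (0.088) became 0.238. Own side minus other side in OIS-shA1 minus Grow-shA1 (0.017) became -0.0951 with medians over pairs. The count of 2 sign changes in OIS-shA1 minus OIS became 1 with all bins kept. Of the values of single clusters past 0.2, 138 of 142 kept their sign. The exceptions were HOXC contact across the cluster divided by the SD of each map, OIS minus Grow (-0.309 to 0.0270) and OIS-shA1 minus Grow-shA1 (-0.334 to 0.00688), and HOXC contact with the group 13 side in OIS-shA1 minus Grow-shA1 (-0.217), which was 0.0154 divided by the SD and 0.0995 with medians over pairs. Some differences smaller than 0.2 also changed sign. The causes were not tested. The alternatives for the contact between core bins and for own side minus other side were chosen after seeing the data. No paired analysis was possible because the 2 replicates of each condition were pooled in 1 map. Limits of counting could not be given without depth, and values of 1 pair of bins are the least certain.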
